A study of Mus musculus with 6 samples.

Results

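The Polycomb repressive complex 2 (PRC2) subunits were described at the RNA level in epidermal progenitor cells of newborn mice, as the 10 genes *Eed*, *Ezh1*, *Ezh2*, *Suz12*, *Jarid2*, *Aebp2*, *Mtf2*, *Phf1*, *Phf19* and *Epop*. They were found by gene name in a table of 38258 genes, and each name matched 1 row. Libraries of 2 groups were compared. In the first, 3 libraries carry a genotype label of Eed -/- Ring1a-/- Ring1b-/- (the genes *Eed*, *Ring1* and *Rnf2*), and in the second, 3 libraries are labelled only as control. Both groups are epidermal cells of the back skin at postnatal day 0, sorted as EpCAM-positive, Sca1-positive and high in α6-integrin, a gate that enriches progenitors of the epidermis between hair follicles. The alleles of the controls, the Cre driver and the exons removed are not given in the sources used here.

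PRC2 adds methyl groups to lysine 27 of histone H3, a mark of genes kept silent. *Ezh2* or its paralog *Ezh1* encodes the methyltransferase, *Suz12* the scaffold on which the complex assembles, and *Eed* the subunit that binds the methyl mark and stimulates the enzyme. Accessory subunits join this core in alternative sets. *Jarid2* and *Aebp2* belong to one form of the complex (PRC2.2), and the Polycomb-like proteins *Mtf2*, *Phf1* and *Phf19*, and *Epop*, to the other (PRC2.1). In the epidermis PRC2 holds back the genes of other tissues and of late differentiation in dividing basal cells.

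Of the 4 core genes, 3 fell in the libraries labelled triple knockout (below, labelled knockouts), and of the 6 accessory genes 2 fell and 2 rose; no test of core against accessory genes was run. *Eed*, *Ezh1* and *Ezh2* were at 56.9%, 59.0% and 62.5% of their control means, and *Mtf2* and *Aebp2* at 64.6% and 71.9%. *Epop* was 6.03-fold and *Phf1* 2.21-fold higher. *Suz12*, *Jarid2* and *Phf19* did not pass the test. By limma with Benjamini-Hochberg adjustment over all 23006 genes tested and a threshold of 0.05, 5 of the 10 subunits were lower, where 15.3% of all genes tested were, and 2 were higher, where 20.5% of all genes were. The groups did not overlap for 8 of the 10, against 49.1% of all genes. All these counts include *Eed*, which is itself a targeted gene. The calls of single subunits rest on 3 libraries a group, and the number that fell was 2 without control replicate 2 or labelled knockout replicate 1, and 3 without labelled knockout replicate 3. The number that rose was 1 without labelled knockout replicate 2 or 3.

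Values are normalized counts, which are comparable between libraries for the same gene but are not corrected for gene length. A log2 change is labelled knockout minus control on the scale log2(normalized count + 1), given ± its standard error, and a level is given as mean ± SD, n = 3 libraries a group. Nothing in the labels states that the replicates are different animals. *Xist*, read below as a mark of female libraries, was at 67020, 1453 and 76151 in labelled knockouts, against 390, 99785 and 142 in controls. Both sexes thus occur among the labelled knockouts and among the controls, so neither group comes from a single animal. Whether libraries of the same sex are different animals is not known. The p-values therefore measure only how these libraries vary, and part of that variation may be technical. All 10 subunits passed the filter of a mean of at least 10. The RNA comes from whole sorted populations, where fewer cells of a type and less RNA per cell cannot be told apart. The libraries held roughly 17800000 to 37700000 assigned reads (a total inferred from the smallest steps of the values), and ribosomal RNA took 27.6% to 31.4% of the normalized count in labelled knockouts and 22.5% to 36.6% in controls. Control replicate 3 had the highest ribosomal share. Its summed level of 6 fibroblast markers was 30213, against 8090 and 12400 in the other controls and 9336 to 14559 in labelled knockouts. Its sums of leukocyte (1469), endothelial (651) and Schwann cell markers (89.3) were also the highest of the controls. Those of basal, spinous, melanocyte and Merkel cell markers were not. Of the 9 markers of the basal layer, 7 fell (15.3% of all genes tested did) and 2 rose (20.5%). The 2 that rose, *Epcam* and *Ly6a* (Sca1), and 1 that fell, *Itga6* (α6-integrin, −1.60), encode the proteins used for the sort. One targeted gene, *Ring1*, was higher in labelled knockouts (67.7, 104 and 112, against 11.8, 8.72 and 23.1 in controls). The exons removed are not known, so a value summed over the whole gene does not check the label.

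**Figure D1:**
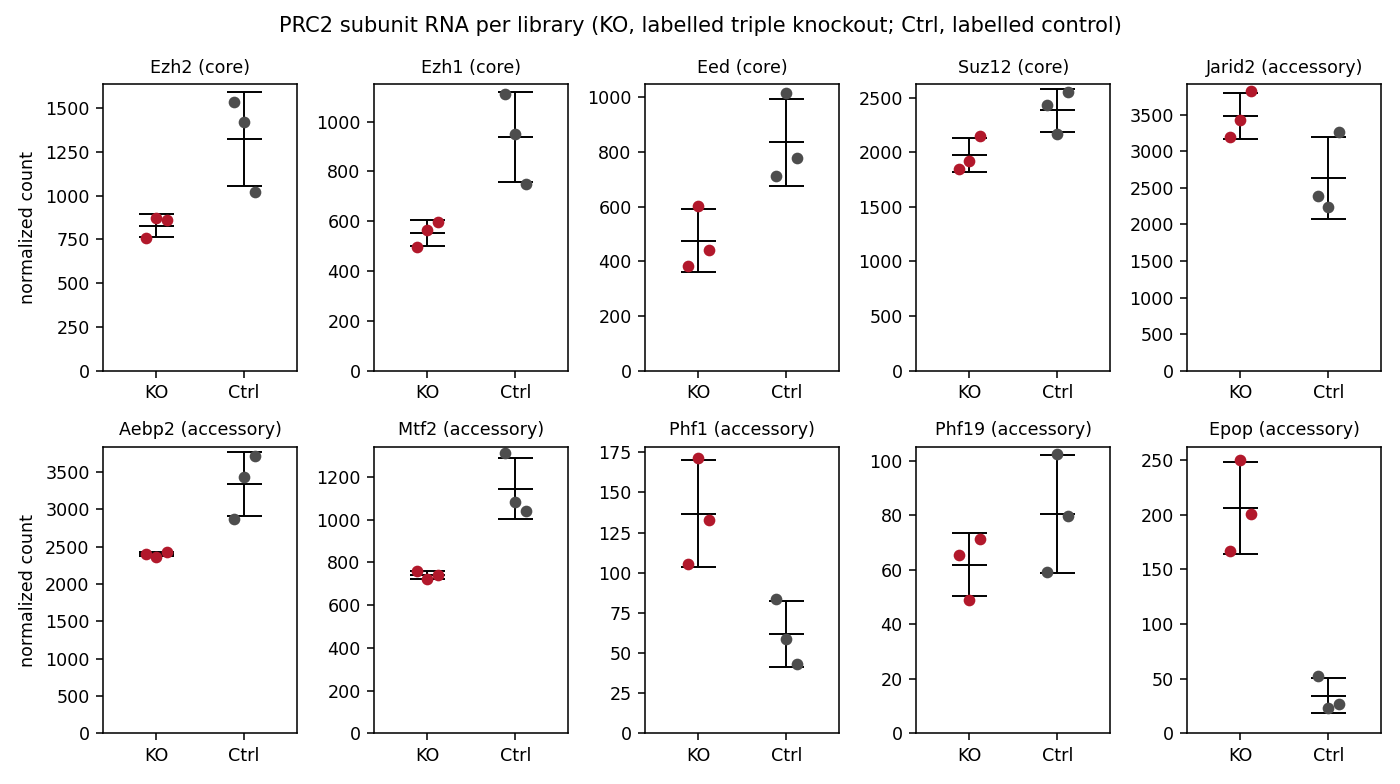
Normalized count (vertical axes, from 0) of each PRC2 subunit in the 3 libraries labelled triple knockout (KO) and the 3 labelled control (Ctrl). Points are libraries, and bars are the mean and SD. All KO points lie below all Ctrl points for *Ezh2*, *Ezh1*, *Eed*, *Suz12*, *Aebp2* and *Mtf2*, above them for *Phf1* and *Epop*, and overlap them for *Jarid2* and *Phf19*.

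Promoter sequences of the core subunits and of *Phf19* are shown because 3 of them hold the binding word of E2F factors, which drive genes of the cell division cycle and are known to act on *Ezh2*. Windows run from 250 bases before to 50 bases after an annotated start, 5′ to 3′ on the strand of the gene (RefSeq, GRCm38.p6): *Ezh2* at chr6:47594981-47595280 (minus strand), *Suz12* at chr11:79992856-79993155 (plus), *Phf19* at chr2:34913927-34914226 (minus), *Ezh1* at chr11:101226414-101226713 (minus) and *Eed* at chr7:89980927-89981226 (minus). Capitals mark a match to TTTCCCGC, TTTCGCGC, TTTGCCGC or TTTGGCGC on either strand.
Ezh2: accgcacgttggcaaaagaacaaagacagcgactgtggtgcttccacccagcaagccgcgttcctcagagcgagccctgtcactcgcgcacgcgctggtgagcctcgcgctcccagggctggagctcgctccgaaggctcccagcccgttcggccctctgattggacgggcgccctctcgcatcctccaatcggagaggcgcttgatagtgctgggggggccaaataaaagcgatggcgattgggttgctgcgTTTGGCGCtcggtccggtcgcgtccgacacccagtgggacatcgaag
Suz12: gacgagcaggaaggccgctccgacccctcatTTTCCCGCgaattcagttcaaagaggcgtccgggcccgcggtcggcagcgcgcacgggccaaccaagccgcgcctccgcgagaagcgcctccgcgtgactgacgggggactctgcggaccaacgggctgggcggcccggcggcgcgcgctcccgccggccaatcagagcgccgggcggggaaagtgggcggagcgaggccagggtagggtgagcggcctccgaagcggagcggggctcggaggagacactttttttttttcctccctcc
Phf19: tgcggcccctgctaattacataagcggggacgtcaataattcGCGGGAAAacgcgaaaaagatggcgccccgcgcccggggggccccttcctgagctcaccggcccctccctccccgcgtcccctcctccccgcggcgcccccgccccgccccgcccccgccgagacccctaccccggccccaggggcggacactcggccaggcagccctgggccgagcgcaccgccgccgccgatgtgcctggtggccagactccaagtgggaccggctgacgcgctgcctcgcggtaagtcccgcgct
Ezh1: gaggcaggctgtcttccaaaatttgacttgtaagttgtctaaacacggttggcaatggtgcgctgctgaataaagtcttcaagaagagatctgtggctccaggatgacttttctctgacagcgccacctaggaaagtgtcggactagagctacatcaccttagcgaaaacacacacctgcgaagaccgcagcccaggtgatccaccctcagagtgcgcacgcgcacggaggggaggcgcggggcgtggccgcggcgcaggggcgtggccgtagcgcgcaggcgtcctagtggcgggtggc
Eed: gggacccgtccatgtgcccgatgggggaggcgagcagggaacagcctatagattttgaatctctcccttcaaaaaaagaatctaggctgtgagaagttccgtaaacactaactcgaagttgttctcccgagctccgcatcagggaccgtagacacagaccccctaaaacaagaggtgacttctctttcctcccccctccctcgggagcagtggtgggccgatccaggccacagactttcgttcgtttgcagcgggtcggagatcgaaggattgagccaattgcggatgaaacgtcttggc
Of the 13 windows of 9 subunits (all but *Epop*), 3 held such a word, and 2.26% of all 32851 windows did. Each of these words contains CG, and windows of like CpG content were not compared, so the 2 shares are not on an equal footing. In *Ezh2* the word starts at base 254 of the window, just after the annotated start. In *Suz12* it starts at base 32, and in *Phf19* at base 43 on the opposite strand. The windows of *Ezh1* and *Eed* held none of these words. Of the 3 genes with a word, *Ezh2* fell and *Suz12* and *Phf19* did not pass. CpG dinucleotides numbered 31 in the *Ezh2* window, 41 in *Suz12*, 38 in *Phf19*, 23 in *Ezh1* and 17 in *Eed*. Over all windows the median was 7 and the upper quartile 20.

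*Eed* (ENSMUSG00000030619.9, GRCm38 chromosome 7, 89954654 to 89980983, minus strand), the targeted PRC2 gene, had 381, 604 and 441 normalized counts in labelled knockouts, against 714, 1015 and 778 in controls. Every labelled knockout was below every control, and none was near 0. The log2 change was −0.82 ± 0.21 (limma adjusted p = 0.0144). For this gene alone, an exact permutation test (two-sided, 20 ways to assign the libraries) gave p = 0.1, which is the smallest value that 3 against 3 allows. The value sums all transcripts of the gene, so RNA from exons outside a deleted part would still be counted and would check nothing. The call was lost without control replicate 2 (−0.67, limma adjusted p = 0.0525) or labelled knockout replicate 1 (−0.68, 0.0615) or 3 (−0.78, 0.0546).

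Both methyltransferase genes fell. *Ezh2* (ENSMUSG00000029687.16, chromosome 6, 47530139 to 47595341, minus strand), the paralog that prevails in dividing cells, had 756, 870.3 and 860.1 in labelled knockouts, against 1532, 1419 and 1023 in controls. Its log2 change was −0.66 ± 0.18 (limma adjusted p = 0.0170). *Ezh1* (ENSMUSG00000006920.14, chromosome 11, 101191115 to 101226463, minus strand), the paralog with weaker enzyme activity that persists in resting cells, had 498, 565 and 597, against 1110.4, 952 and 749.96 in controls. Its log2 change was −0.75 ± 0.18 (limma adjusted p = 0.00991), and it held under all 17 alternative settings tried. For both genes control replicate 3 was the lowest control and stood closest to the labelled knockouts. The *Ezh2* call was lost without control replicate 1 (−0.54, limma adjusted p = 0.0640) or 2 (−0.60, 0.0558), when the first labelled knockout was left out (−0.59, 0.0688), and without limma's trend and robust estimation (0.0551).

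The ratio of the paralogs within a library did not separate the groups. Per kilobase of the longest annotated transcript, the *Ezh1* over *Ezh2* ratio was 0.436, 0.430 and 0.460 in labelled knockouts, against 0.480, 0.444 and 0.486 in controls, so that the groups overlapped. *Ezh1* made up 30.7% ± 0.756 of the summed *Ezh1* and *Ezh2* level in labelled knockouts and 32.0% ± 1.05 in controls. On the log2 scale the ratio differed by −0.09 between the groups. It differed by −0.38 once the dependence on GC content and transcript length had been removed from each library (below, GC and length correction).

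*Suz12* (ENSMUSG00000017548.15, chromosome 11, 79993106 to 80034123, plus strand) was the core gene with the smallest change and did not pass. It had 1846, 1923 and 2152 in labelled knockouts, against 2435, 2164 and 2551 in controls. The groups did not overlap, but the highest labelled knockout and the lowest control were nearly equal. The log2 change was −0.27 ± 0.13, with a 95% interval from −0.56 to 0.02 (limma adjusted p = 0.137). The median log2 change was −0.70 over the 4 core genes, the targeted *Eed* included, where it was 0.01 over all genes tested.

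**Figure D2:**
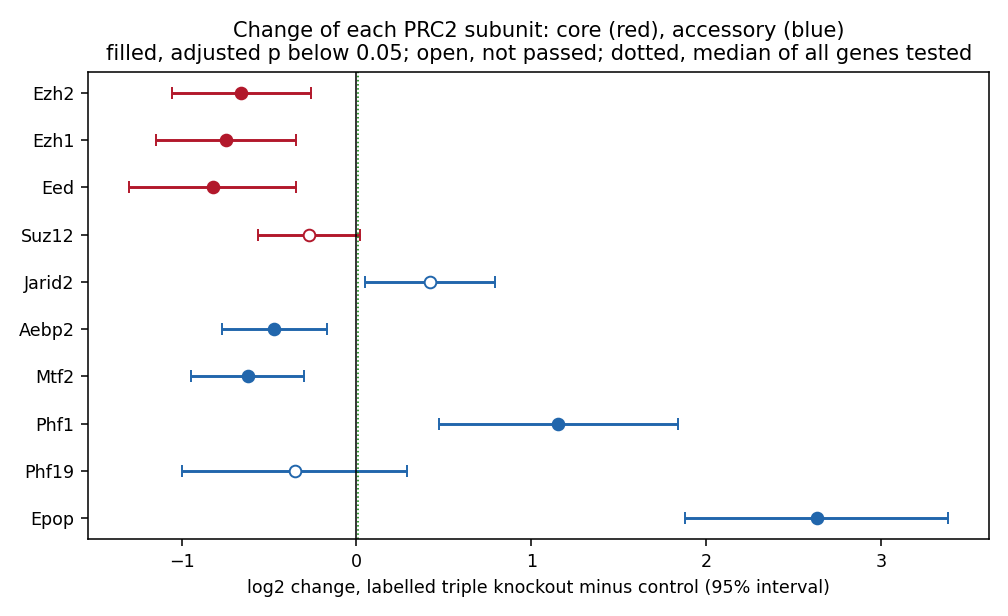
Log2 change of each subunit (horizontal axis, labelled triple knockout minus control) with its 95% interval from limma. Core genes (red) lie between −0.82 and −0.27, and accessory genes (blue) between −0.62 and 2.63; filled points passed an adjusted p below 0.05.

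The accessory subunits changed in both directions. Of the 6, 2 rose, where 20.5% of all genes tested did, and 2 fell, where 15.3% did. Under the 17 alternatives 1 to 3 rose and 1 to 3 fell. The log2 changes of the accessory subunits had a median of 0.03, where all genes tested had 0.01. *Epop* (ENSMUSG00000043439.5, chromosome 11, 97627389 to 97629702, minus strand), which links PRC2 to the Elongin B and C proteins, had 167, 250.2 and 201 in labelled knockouts, against 52.4, 22.8 and 27.1 in controls. Every labelled knockout was above every control, and the nearest pair was 167 and 52.4. The log2 change was 2.63 ± 0.33 (limma adjusted p = 0.000335) and passed under all 17 alternatives, but was 1.35 with GC and length correction. In controls *Epop* stood at 34.1 ± 16.0, where 1 read was worth 1.00 to 1.31 normalized counts.

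*Phf1* (ENSMUSG00000024193.7, chromosome 17, 26933127 to 26937890, plus strand), a Polycomb-like protein whose Tudor domain reads methylated lysine 36 of histone H3, also rose. It had 106, 172 and 133 in labelled knockouts, against 83.9, 58.7 and 43.2 in controls. The groups did not overlap, and the log2 change was 1.15 ± 0.30 (limma adjusted p = 0.0156). The call was lost when the second (0.97, limma adjusted p = 0.0707) or the third (1.16, 0.0501) labelled knockout was left out, and the change was 0.34 (limma adjusted p = 0.418) with GC and length correction. In GENCODE M21, 39.3% of the exon bases of *Phf1* overlap exons of *Cuta* on the opposite strand, and the sources used here do not state a strand setting. *Cuta* averaged 637 ± 68.7 in labelled knockouts and 518 ± 296 in controls, and its part in the *Phf1* value was not tested.

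The other Polycomb-like genes did not rise. *Mtf2* (ENSMUSG00000029267.17, chromosome 5, 108065674 to 108109004, plus strand), which binds unmethylated CpG-rich DNA and brings PRC2 to it, had 758, 723 and 739 in labelled knockouts, against 1309.8, 1084 and 1041 in controls. The labelled knockouts were tightly grouped and all below the controls. The log2 change was −0.62 ± 0.14 (limma adjusted p = 0.00828), and the call held under all 17 alternatives. *Phf19* (ENSMUSG00000026873.9, chromosome 2, 34893757 to 34914026, minus strand) had 65.5, 48.9 and 71.4, against 59.2, 102 and 79.7 in controls. These ranges overlapped, and the log2 change of −0.35 ± 0.28 had a 95% interval from −0.99 to 0.29 (limma adjusted p = 0.370). With GC and length correction *Phf19* passed as lower (−0.86, limma adjusted p = 0.0355). *Mtf2* made up 75.3% ± 3.05 of the summed per-kilobase level of the 3 Polycomb-like genes in labelled knockouts and 87.2% ± 1.68 in controls, with no overlap between groups. No test was run on this share, and it is not given with GC and length correction, where the change of *Phf1* was 0.34.

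The 2 subunits of the other form differed in direction. *Aebp2* (ENSMUSG00000030232.18, chromosome 6, 140622663 to 140678472, plus strand), a zinc-finger protein that stabilizes the complex, had 2408, 2368 and 2426 in labelled knockouts, against 2876, 3437 and 3709.8 in controls. The groups did not overlap, and the log2 change was −0.47 ± 0.13 (limma adjusted p = 0.0215). This call was lost when any labelled knockout was left out (limma adjusted p = 0.0635 to 0.0800), without control replicate 2 (0.0574) and without limma's trend and robust estimation (0.0811). *Jarid2* (ENSMUSG00000038518.15, chromosome 13, 44729474 to 44921643, plus strand), a DNA-binding member of the Jumonji family that brings PRC2 to chromatin, had 3196, 3425 and 3823, against 2388, 2238 and 3267 in controls. The third control lay above the lowest labelled knockout. *Jarid2* did not pass (0.42 ± 0.16, 95% interval before adjustment 0.05 to 0.79, limma adjusted p = 0.0753). Without control replicate 3 it passed as higher (0.59, limma adjusted p = 0.00291), and it also passed with quantile normalization (0.46, 0.0230), whereas its change was 0.05 with GC and length correction.

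The *Jarid2* over *Aebp2* ratio of levels per kilobase of the longest annotated transcript was 0.942, 1.03 and 1.12 in labelled knockouts, against 0.590, 0.462 and 0.625 in controls. With the longest coding transcript as length it was 1.31, 1.43 and 1.56, against 0.821, 0.644 and 0.871 in controls. Which of the 2 genes stands higher in labelled knockouts thus depends on the length used. Relative to *Suz12*, *Jarid2* stood at 0.907, 0.932 and 0.930, against 0.513, 0.541 and 0.6704 in controls. By coding length this was 1.26, 1.30 and 1.30, against 0.715, 0.754 and 0.934 in controls. *Epop* relative to *Suz12* was at 0.171, 0.246 and 0.176, against 0.0407, 0.0199 and 0.0201 in controls. The groups did not overlap in these 3 ratios. *Eed* relative to *Suz12* overlapped, at 0.437, 0.664 and 0.434 in labelled knockouts, against 0.620, 0.992 and 0.645 in controls. Summed per kilobase, the PRC2.1 subunits held 28.7% ± 1.502 of all accessory RNA in labelled knockouts and 28.0% ± 5.26 in controls, and the groups overlapped. *Phf1* relative to *Suz12* was at 0.0797, 0.124 and 0.0857, against 0.0480, 0.0378 and 0.0236 in controls. No test was run on these ratios. With GC and length correction the difference in log2 ratio was 0.32 for *Jarid2* over *Suz12* (0.69 as reported), 0.61 for *Phf1* over *Suz12* (1.42), 1.62 for *Epop* over *Suz12* (2.90) and 0.58 for *Jarid2* over *Aebp2* (0.89).

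**Figure D3:**
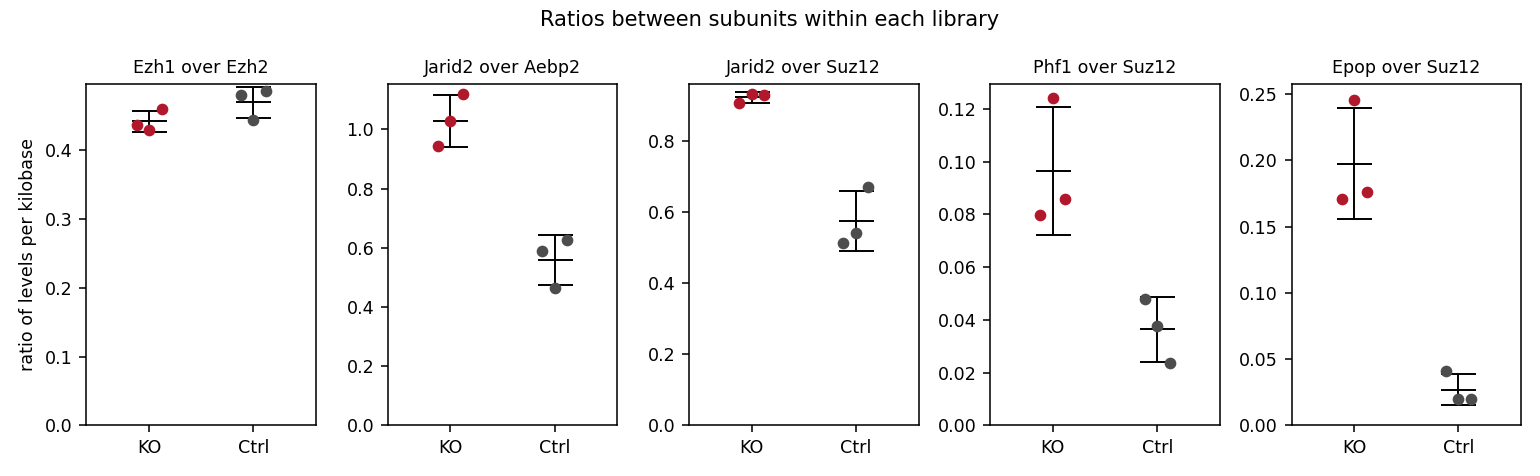
Ratios of per-kilobase levels between subunits (vertical axes, from 0) in each library labelled triple knockout (KO) or control (Ctrl), with mean and SD. The *Ezh1* over *Ezh2* ratio overlaps between the groups (0.430 to 0.460 in KO, 0.444 to 0.486 in Ctrl), and the other 4 ratios do not.

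With the longest annotated transcript as length, *Phf19*, *Phf1* and *Epop* were the lowest subunits in both groups. The gap above them was wide in controls, where the lowest *Ezh1* library was at 178 and the highest *Phf19* library at 27.4. It was narrow in labelled knockouts, where the lowest *Ezh1* library was at 118 and the highest *Epop* library at 108. With the union of exons as length, these genes did not separate from the others in labelled knockouts. There *Epop* (72.1, 108 and 86.7) overlapped *Ezh1* (66.9, 75.9 and 80.3). Per kilobase of the longest annotated transcript, *Suz12* averaged 451 ± 36.4, *Jarid2* 417 ± 38.0, *Aebp2* 405 ± 5.07, *Ezh2* 297 ± 22.8, *Eed* 230.1 ± 55.7, *Mtf2* 182 ± 4.27 and *Ezh1* 132 ± 12.1 in labelled knockouts. *Epop* at 89.0 ± 18.1, *Phf1* at 43.5 ± 10.6 and *Phf19* at 16.6 ± 3.11 followed there. In controls the order was *Aebp2* at 563 ± 71.6, *Suz12* at 545 ± 45.5, *Ezh2* at 475 ± 96.0, *Eed* at 404 ± 76.8, *Jarid2* at 315 ± 66.5, *Mtf2* at 282 ± 35.6 and *Ezh1* at 223 ± 42.9. *Phf19* at 21.5 ± 5.79, *Phf1* at 19.7 ± 6.54 and *Epop* at 14.7 ± 6.91 came last in controls. Of the neighbours in the labelled knockout order, those whose libraries did not overlap were *Aebp2* above *Ezh2*, *Mtf2* above *Ezh1*, and each step from *Ezh1* down to *Phf19*. In controls the only such step was *Ezh1* above *Phf19*, so no other step in the control order exceeded the spread between libraries. *Epop* ranked 8 in labelled knockouts and 10 in controls, and *Jarid2* ranked 2 and 5. The longest annotated *Jarid2* transcript (8353 bases) is a retained-intron form, and with its longest coding transcript (5997 bases) *Jarid2* ranked 1 and 4.

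**Figure D4:**
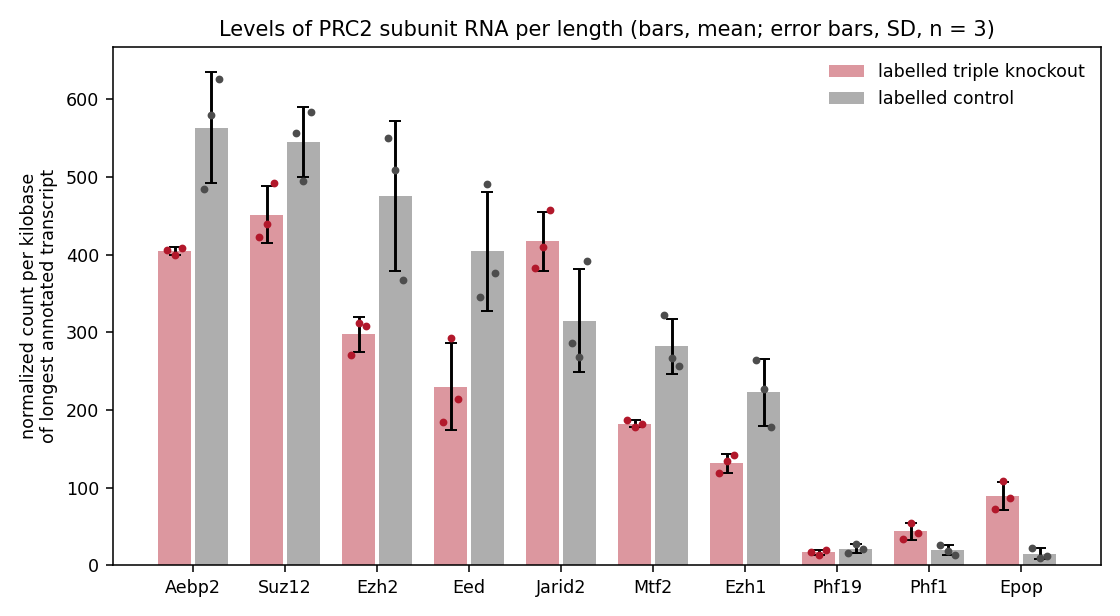
Normalized count per kilobase of the longest annotated transcript (vertical axis, from 0) for each subunit. Bars are means of the 3 libraries labelled triple knockout (red) and control (grey), error bars are SD, and points are libraries. *Phf19*, *Phf1* and *Epop* stay below 110 in every library, and the other 7 genes exceed that in each.

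Profiles over the 6 libraries were compared as the root mean square difference between genes centred on their own log2 mean, among 12646 genes that had a mean of at least 50 and were not named as predicted genes or clones. The closest genes to *Ezh2* were *Nedd1* (0.03), *Cyld* (0.05) and *Luc7l3* (0.05), and *Ezh1* was the 9th closest (0.07). *Mtf2* ranked 205, *Eed* 1847 and *Suz12* 2261. Among the closest to *Eed* were *Ccdc153* (0.09) and *Abhd10* (0.10), with *Ezh2* at rank 541. All points come from the same 6 libraries and hold the difference between the groups.

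Other genes tied to PRC2 were read for context. Of the further PRC2-associated genes, *Rbbp4* and *Lcorl* fell by limma (−0.66 ± 0.18, adjusted p = 0.0179, and −1.10 ± 0.20, adjusted p = 0.00260), and *Rbbp7* and *Lcor* did not pass (−0.29 and −0.24). *Rbbp4* and *Rbbp7* encode histone-binding proteins of the core, and *Lcor* and *Lcorl* have forms that join PRC2.1. *Rbbp4* had 1528, 1086 and 1373 in labelled knockouts, against 2003, 1786 and 2520 in controls. Its call was lost when the second labelled knockout was left out (−0.52, limma adjusted p = 0.0798) and without limma's trend and robust estimation (0.0615). *AU022751*, the mouse gene of the PRC2 inhibitor EZHIP, was listed at 0 in 5 libraries and at 0.716 in 1 labelled knockout, and was not tested.

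Among demethylases that remove the mark, *Kdm6a* fell (−0.71 ± 0.21, limma adjusted p = 0.0249), with 2466 ± 625 in labelled knockouts and 3986 ± 667 in controls. The *Kdm6a* call was lost without control replicate 2 (−0.58, limma adjusted p = 0.0843) or labelled knockout replicate 2 (−0.48, 0.0830), and without limma's trend and robust estimation (0.0778). *Kdm6b* did not pass (0.38 ± 0.19, limma adjusted p = 0.157), and with GC and length correction its direction turned and it passed as lower (−0.66, limma adjusted p = 0.00839). *Uty*, the Y-linked relative of *Kdm6a*, did not pass (−2.14 ± 0.76, limma adjusted p = 0.0568), but did without control replicate 2 (−2.88, 0.0135) or labelled knockout replicate 2 (−2.92, 0.0121). By *Xist* and Y-linked genes, 1 of 3 labelled knockouts (replicate 2) and 2 of 3 controls (replicates 1 and 3) were male. Leaving out control replicate 2 thus left only male controls, and leaving out labelled knockout replicate 2 left only female labelled knockouts. In libraries read as female, *Uty* still had 59.9 and 55.1 in labelled knockouts and 156 in the control. The source of these values was not tested. With sex as a covariate *Kdm6a* changed by −0.90 (limma adjusted p = 0.00215) and *Uty* by −1.37 (0.00234), and none of the PRC2 subunits changed its call. *Rnf2*, targeted with *Ring1* and *Eed*, did not pass (−0.24 ± 0.22, limma adjusted p = 0.417).

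Subunits of Polycomb repressive complex 1, the partner complex, were read as well. Of 22 tested, 11 rose (20.5% of all genes did), 1 fell (15.3%) and 10 did not pass; their median log2 change was 0.48. One of the 11 is the targeted *Ring1*. *Phc1*, a component that lets complexes cluster, rose to 877 ± 26.0, against 396 ± 31.5 in controls (log2 change 1.15, and 0.68 with GC and length correction). *Pcgf6* rose to 327 ± 37.1, against 147 ± 35.3. *Pcgf2* (1145 ± 131 against 1359 ± 85.5) and *Pcgf3* (2138 ± 265 against 1814 ± 111) did not pass, and *Pcgf2* passed as lower with GC and length correction. With GC and length correction 7 of the 22 rose, where 16.1% of all genes did, and 6 fell, where 24.6% did.

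Proliferation genes fell in the same libraries as *Ezh2*. Of 30, 25 fell by limma, where 15.3% of all genes fell, and 5 did not pass. Their median log2 change was −1.24, and their summed level was 19043 to 26114 in labelled knockouts against 52265 to 62492 in controls. *Mcm6*, a subunit of the replicative helicase, changed by −1.88 on the log2 scale, *Ccnb1*, a mitotic cyclin, by −1.98, the mitotic kinase *Cdk1* by −1.57 and the topoisomerase *Top2a* by −1.68, beside −0.66 for *Ezh2*. *Tk1* (909 ± 51.4 in labelled knockouts and 835 ± 39.9 in controls) and *Tyms* (591 ± 140.3 and 961 ± 430.1) did not pass, and the direction of *Tk1* turned with GC and length correction (−0.24). Of 12 E2F and pocket protein genes, 2 rose (20.5% of all genes did), 4 fell (15.3%) and 6 did not pass. *E2f8* and *E2f7*, which repress E2F targets, changed by −1.95 and −1.504, the pocket protein gene *Rbl1* by −1.20 and *Rb1*, the retinoblastoma gene, by 1.00. *Tfdp1* (−0.38) and *Rbl2* (−0.35) did not pass, but both passed as lower with GC and length correction and without control replicate 3. The part of these genes in the PRC2 values was not tested.

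Markers of other cell types were read beside the subunits. Of all genes tested, 20.5% rose and 15.3% fell. Summed levels of the 5 melanocyte markers were 837 to 1184 in labelled knockouts and 299.8 to 404 in controls, and 4 of the 5 rose. Those of the 4 Schwann cell markers were 202 to 275 and 42.1 to 89.3, and 2 of the 4 rose. With the filter raised to a mean of at least 50, no Schwann cell marker was tested. The 5 Merkel cell markers summed to 1919 to 2105 in labelled knockouts and 28.6 to 46.8 in controls, and all 4 tested rose, although *Atoh1*, the gene that specifies Merkel cells, was at 0 in every labelled knockout and in 2 of 3 controls. Fibroblast (9336 to 14559 against 8090 to 30213), endothelial (331 to 528 against 256 to 651) and leukocyte markers (967 to 1346 against 545 to 1469) overlapped, with *Cd3e* and *Cd207* at 0 in some libraries. The leukocyte sums of the other controls were 545 and 660, and without control replicate 3 all 4 leukocyte markers tested passed as higher, against 0 as reported. Spinous markers split, 2 higher and 2 lower, with sums of 20622 to 22573 against 36874 to 54541. Higher marker RNA does not by itself show that more cells of a type were present. Whether cells of these types add to the subunit values was not tested.

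**Figure D5:**
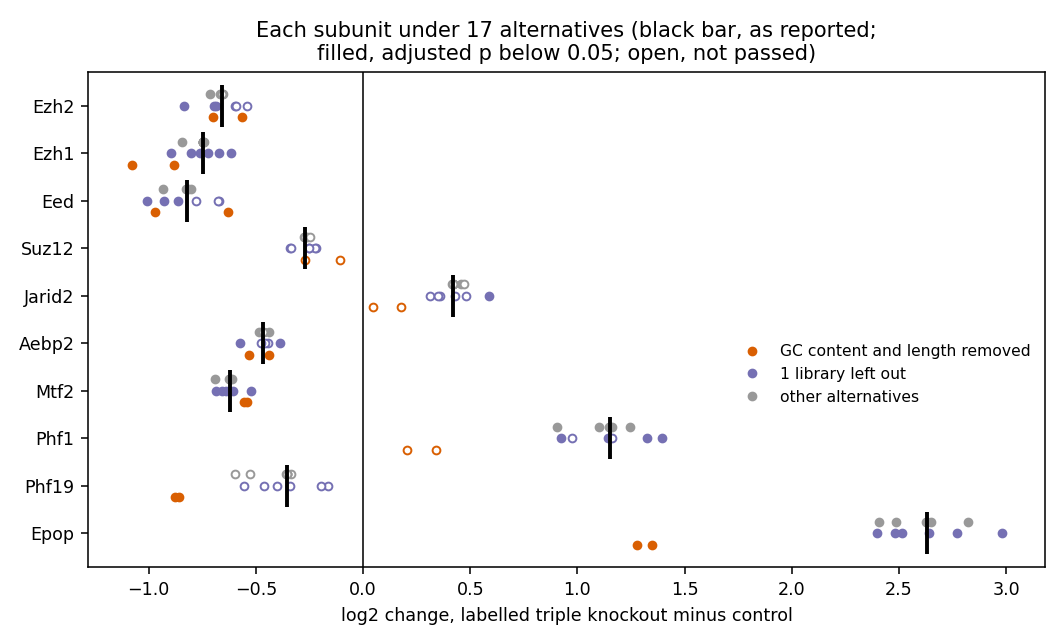
Log2 change of each subunit (horizontal axis, labelled triple knockout minus control) as reported (black bar) and under 17 alternative settings; filled points passed an adjusted p below 0.05. Every subunit keeps its direction, *Ezh1*, *Mtf2* and *Epop* pass throughout, and *Phf1*, *Jarid2* and *Epop* lie lowest with GC and length correction.

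GC and length correction shifted the median of all genes to −0.18, against 0.01 as reported. Relative to that median, *Epop* was at 1.53, *Phf1* at 0.52, *Jarid2* at 0.23, *Mtf2* at −0.36, *Aebp2* at −0.35, *Suz12* at −0.09, *Ezh2* at −0.52, *Phf19* at −0.68, *Eed* at −0.79 and *Ezh1* at −0.90. With values averaged over transcripts in this correction, *Suz12* was at 0.07 relative to the median. Of all calls, 57.3% were higher as reported, 39.6% with this correction and 45.6% with quantile normalization.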

How the data were processed

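RNA was measured in 3 libraries labelled triple knockout and 3 labelled control, grouped from their titles. Per the labels' protocols, nanogram amounts of total RNA were amplified and sequenced as single reads. The deposited table gives a normalized count per gene and library, per the file headers, treated here as a signal. The tools named in the submitters' processing notes are kallisto 0.42.5 and DESeq2, with no role or order; annotation, strand setting and options are not given in the sources used here. Among values worth at most 20 reads, only 25.9% to 42.6% were whole multiples of 1 read within 0.01, so no count model was run and depth is approximate. No 2 libraries shared an identical value above 0. Of 38258 genes, 98.4% had coordinates identical to GENCODE M21 on GRCm38.

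Genes with a mean of at least 10 (23006) were tested on log2(value + 1) with limma 3.58.1 in R 4.3.3 (trend, robust, no covariate). On simulated data of 23006 genes for the comparison of labelled knockouts with controls, recovery was 4% at 1.5-fold, 42% at 2-fold, 88% at 4-fold and 100% at 8-fold. Only 50 genes were changed at each fold, whereas 35.8% of all genes tested were called in the data. The adjustment was therefore stricter in the simulation, and these shares do not give the recovery in the data. The alternatives tried were a pseudocount of 0.5 or 5, dropping the filter or raising it to 50, scaling by trimmed mean of M-values, quantile normalization, neither trend nor robust variances in limma, a block for replicate number, sex as a covariate, removal of GC content and length with splines, and each library left out in turn. GC content and length averaged over transcripts, coding length, and the alternatives for ratios and for genes other than the members were added after seeing the data. The members and lists were chosen with earlier results of these data known. The genes named are the members, the targets, the further PRC2-associated and demethylase genes, and the 3 nearest profiles to *Eed* and *Ezh2*. From the lists of PRC1, proliferation, and E2F and pocket protein genes, up to 4 with the smallest p and 2 of the highest-expressed that did not pass are named. Results for 2 of these genes are left out of the text. The planned rule also covered the cell type markers, which are given as sums and counts instead. Markers named singly, and the genes that overlap subunit exons, were chosen apart from this rule.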

Additional observations from a re-analysis of the deposited data

How the results depend on the processing

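All 10 subunits kept their direction under all 17 alternatives. Of the 7 calls, those of *Ezh1*, *Mtf2* and *Epop* held in each. The number of subunits that rose (2 as reported) was 1 after removal of GC content and length, by the longest transcript or averaged over transcripts, and 1 to 3 with single libraries left out. The number that fell (5 as reported) was 3 without trend or robust estimation and 2 to 5 with single libraries left out. The difference in log2 *Ezh1* to *Ezh2* ratio became −0.38 and −0.32 after removal of GC content and length by the longest transcript and averaged over transcripts. With the union of exons as length, 4 of 45 pairs of subunits stood in the other order in labelled knockouts and 6 in controls, and with the longest coding transcript 1 and 2.

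Among the lists, the further PRC2-associated genes that fell (2) were 1 without trend or robust estimation and 1 to 2 with libraries left out. Demethylase genes that fell (1) were 2 with a mean of at least 50, quantile normalization or sex as a covariate, where the second was *Uty*, and 2 with GC content and length removed either way, where the second was *Kdm6b*, whose direction turned (−0.66 by the longest transcript and −0.51 averaged over transcripts). They were 0 by limma without trend or robust estimation (2 at an unadjusted p below 0.05). For PRC1, 7 rose and 6 fell with GC content and length removed either way, 2 fell with quantile normalization, 0 fell without trend or robust estimation (1 at an unadjusted p below 0.05), and 0 to 1 with libraries left out. Proliferation genes that rose were 0 to 1 with libraries left out, and *Tk1* turned to −0.24 and −0.38 with GC content and length removed either way (longest transcript, averaged). E2F and pocket protein genes that rose (2) were 1 without trend or robust estimation or with GC content and length removed either way, and 1 to 3 with libraries left out, and those that fell (4) were 8 and 7 with GC content and length removed by the longest transcript and averaged over transcripts. The causes were not tested.

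Same-numbered libraries did not deviate together (correlations of 0.06, −0.02 and 0.02), and not every library correlated best with its own number. With the replicate block 3 subunits rose and 5 fell, since *Jarid2* passed as higher (0.42, limma adjusted p = 0.0442).

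*Phf1*, *Phf19* and *Epop* had the lowest levels in controls; whether depth limits their calls was not tested.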

Other observations

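Of 5 genes tested that overlap subunit exons on the opposite strand, chosen after their values were seen, 2 fell (15.3% of all genes did) and 3 did not pass. *Gm26625*, a long noncoding RNA gene that overlaps 174 exon bases of *Ezh2*, averaged 14.3 ± 7.96 in labelled knockouts and 90.9 ± 10.0 in controls (log2 change −2.76 ± 0.46, limma adjusted p = 0.00145). *E230029C05Rik*, which overlaps 261 exon bases of *Eed*, averaged 22.4 ± 9.64 in labelled knockouts and 54.9 ± 20.2 in controls (−1.27 ± 0.40, limma adjusted p = 0.0336). Those that did not pass were *Gm26563*, opposite *Suz12* (165 ± 16.3 in labelled knockouts and 228 ± 16.5 in controls, limma adjusted p = 0.0785), *Tmed5*, opposite *Mtf2* (limma adjusted p = 0.318), and *Cuta*, opposite *Phf1* (0.343). Where strand was not used in counting, reads from the shared exon bases of such pairs cannot be told apart by strand. For these genes the shared bases ranged from 2.61% of the exon bases of *Ezh2* to 39.3% of those of *Phf1*.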
